A study of Sorghum bicolor with 4 samples.

Results

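The dwarfing genes Dw1, Dw2 and Dw3 of sorghum were followed in the middle internode of the stem through 3 stages, from booting over the milky stage to physiological maturity. The 3 genes were chosen by gene ID, as Sobic.009G229800 (Dw1), Sobic.006G067700 (Dw2, an AGC-type protein kinase) and Sobic.007G163800 (Dw3, the auxin transporter ABCB1). They are 3 of the 34458 rows of the deposited table, and each was found in exactly 1 row. That row held no other gene ID and shared its locus with no other row, so none of the 3 values is merged with that of another annotated gene.

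All samples were of SSV84, a variety of sweet sorghum (Sorghum bicolor) raised in the field, and differed by stage alone as far as the labels say. The libraries, made from total RNA, numbered 2 at booting, 1 in the milky stage and 1 at maturity. The table gives a single FPKM value per row and stage (fragments scaled by transcript length and by sequencing depth), as made by the authors, so no SD, n or p-value belongs to any value below. Which alleles of the dwarfing genes SSV84 carries, and how many plants entered a library, is not stated in the sources used here. The internode label was not checked against marker genes, because the IDs of the table are not paired with gene names.

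Sorghum dwarfing genes are known from recessive alleles that shorten the stem internodes and that breeders combined to make short grain types. Dw3 encodes a membrane transporter that moves auxin out of cells, the sorghum counterpart of maize Brachytic2, and its loss shortens the lower internodes. Dw2 encodes a kinase of the plant AGC group, a group whose members in Arabidopsis include kinases that phosphorylate auxin carriers. Dw1 encodes a protein that has been placed at the plasma membrane and that acts in internode growth, with a reported link to brassinosteroid signalling.

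The transcripts of all 3 dwarfing genes were measured at every stage. Among rows with at least 1 FPKM in a stage, Dw1 and Dw2 stood above 54.4% to 65.3% of rows. Dw3 stood above 48.6% of them at booting and 33.8% at maturity. Dw3 and Dw1 had their highest values at booting, and Dw2 had its lowest there. Dw3 stood at 54.7% of its booting value at maturity, the widest difference among the 3 genes, and Dw2 at 122% of its own. A row was counted as changed at a difference of at least 1 in log2(FPKM + 1). None of the 3 genes reached that size in any comparison of stages. Of the 18505 rows with at least 1 FPKM in a stage, 10.7% reached it for the milky stage against booting. The share was 14.3% for maturity against booting and 9.25% for maturity against the milky stage. Beside such shares, the lack of a change in 3 genes is no result about the dwarfing genes.

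**Figure D1:**
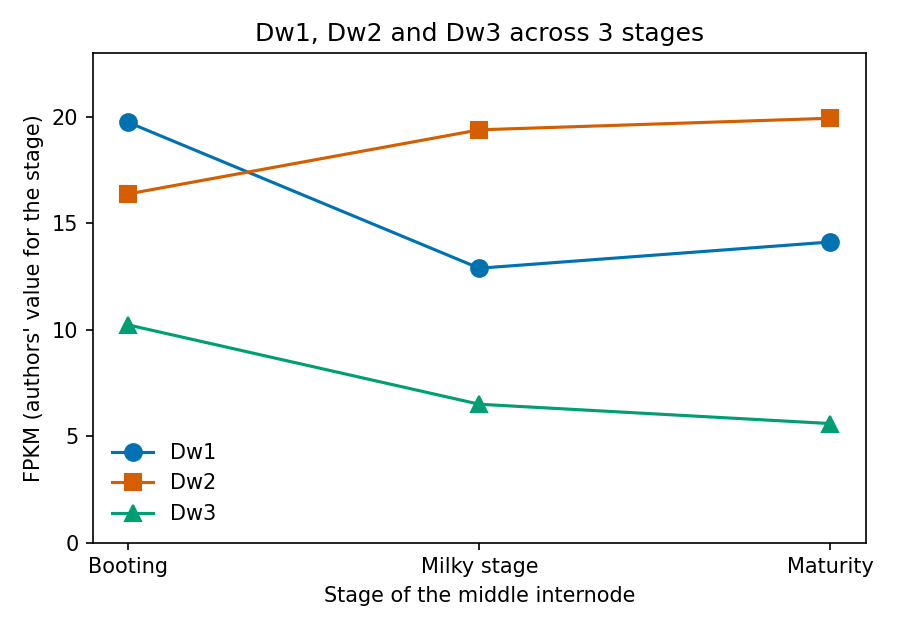
FPKM of Dw1 (circles), Dw2 (squares) and Dw3 (triangles) on the y axis at the 3 stages on the x axis, with 1 value made by the authors per gene and stage and hence no error bars. Dw1 lies above Dw2 at booting (19.7 and 16.4 FPKM) and below it in the milky stage (12.9 and 19.4 FPKM) and at maturity (14.1 and 19.9 FPKM), while Dw3 is the lowest at each stage.

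Dw3, the auxin transporter, lies on chromosome 7 from 59821904 to 59830291 in the coordinates of the deposited table, the longest of the 3 loci at 8388 bp. It had 10.2 FPKM at booting, 6.50 FPKM in the milky stage and 5.59 FPKM at maturity. Its value was thus lower at each later stage, with most of the difference between booting and the milky stage. In the milky stage it had 63.6% of its booting value, a log2 difference of −0.58. From the milky stage to maturity the log2 difference was −0.19, and over the whole span it was −0.77. Without the added 1, the whole-span difference was −0.87 on the log2 scale, still under the size of 1.

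Dw1, whose protein has been placed at the plasma membrane, lies on chromosome 9 from 57038001 to 57041418 (3418 bp). It had 19.7 FPKM at booting, 12.9 FPKM in the milky stage and 14.1 FPKM at maturity. Booting was again the high stage, and the 2 later values lay close together. The log2 difference was −0.58 for the milky stage against booting and −0.46 for maturity against booting. The log2 difference for maturity against the milky stage was 0.12, and it was 0.052 with the stages rescaled by the median of ratios and 0.045 with quantile normalization.

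Dw2, the AGC kinase, lies on chromosome 6 from 42803036 to 42807520 (4485 bp). It had 16.4 FPKM at booting, 19.4 FPKM in the milky stage and 19.9 FPKM at maturity. Its highest value was 1.22 times its lowest, against 1.53 times for Dw1 and 1.83 times for Dw3. The log2 difference was 0.23 for the milky stage against booting and 0.27 for maturity against booting. The maturity and milky values differed by 0.04, and that sign turned when the stages were rescaled, to −0.034 with the median of ratios and −0.035 with quantile normalization.

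FPKM is scaled by transcript length, and on that basis the levels of the 3 genes were set side by side within a stage. The transcript lengths used are not given, so the ratios between genes rest on lengths that were not checked. At booting the order from high to low was Dw1, Dw2 and Dw3, and at both later stages it was Dw2, Dw1 and Dw3. Whether Dw1 and Dw2, next to each other in both orders, differ beyond the spread between plants cannot be read from single values. The level of Dw1 was 1.21 times that of Dw2 at booting, 0.665 times in the milky stage and 0.708 times at maturity. The level of Dw3 was 0.624 times that of Dw2 at booting, 0.335 times in the milky stage and 0.280 times at maturity. These ratios are taken within a stage, so a factor common to all rows of a stage leaves them as they are.

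The ratio of Dw3 to Dw2 at maturity was 0.449 times the ratio at booting, and that of Dw1 to Dw2 was 0.588 times. Dw3 and Dw1 kept nearly the same ratio to each other at booting and the milky stage, 0.518 and 0.504, and a lower one at maturity, 0.396. The 3 genes together summed to 46.3 FPKM at booting, 38.8 FPKM in the milky stage and 39.6 FPKM at maturity. In whole internodes, fewer cells that transcribe a gene and less RNA of it per cell cannot be told apart.

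Among the 18505 rows with at least 1 FPKM in a stage, Dw1 stood above 65.3% of rows at booting, 54.4% in the milky stage and 55.2% at maturity. Dw2 stood above 60.6%, 65.2% and 64.5% of rows at the same stages. Dw3 stood above 48.6% at booting, 38.5% in the milky stage and 33.8% at maturity, a lower place at each later stage. Dw3 was also the only one of the 3 genes below the median of the rows at 1 FPKM or more in its stage, at 0.797 times that median at booting, 0.516 times in the milky stage and 0.433 times at maturity. Dw2 was at 1.28 times the stage median at booting and at 1.54 times at both later stages.

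The differences of the 3 genes were set against those of all 18505 rows. For the milky stage against booting, 0 of the 3 genes and 10.7% of all rows differed by at least 1 on the log2 scale. For maturity against booting it was 0 of 3 against 14.3%, and for maturity against the milky stage 0 of 3 against 9.25%. With 3 genes, a count of 0 is no result about the dwarfing genes beside those shares. Rows of like level gave similar backgrounds. Between booting and maturity, 14.7% of rows with a mean within 2-fold of that of Dw3 passed the size of 1, 11.8% around the mean of Dw1 and 11.2% around that of Dw2.

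**Figure D2:**
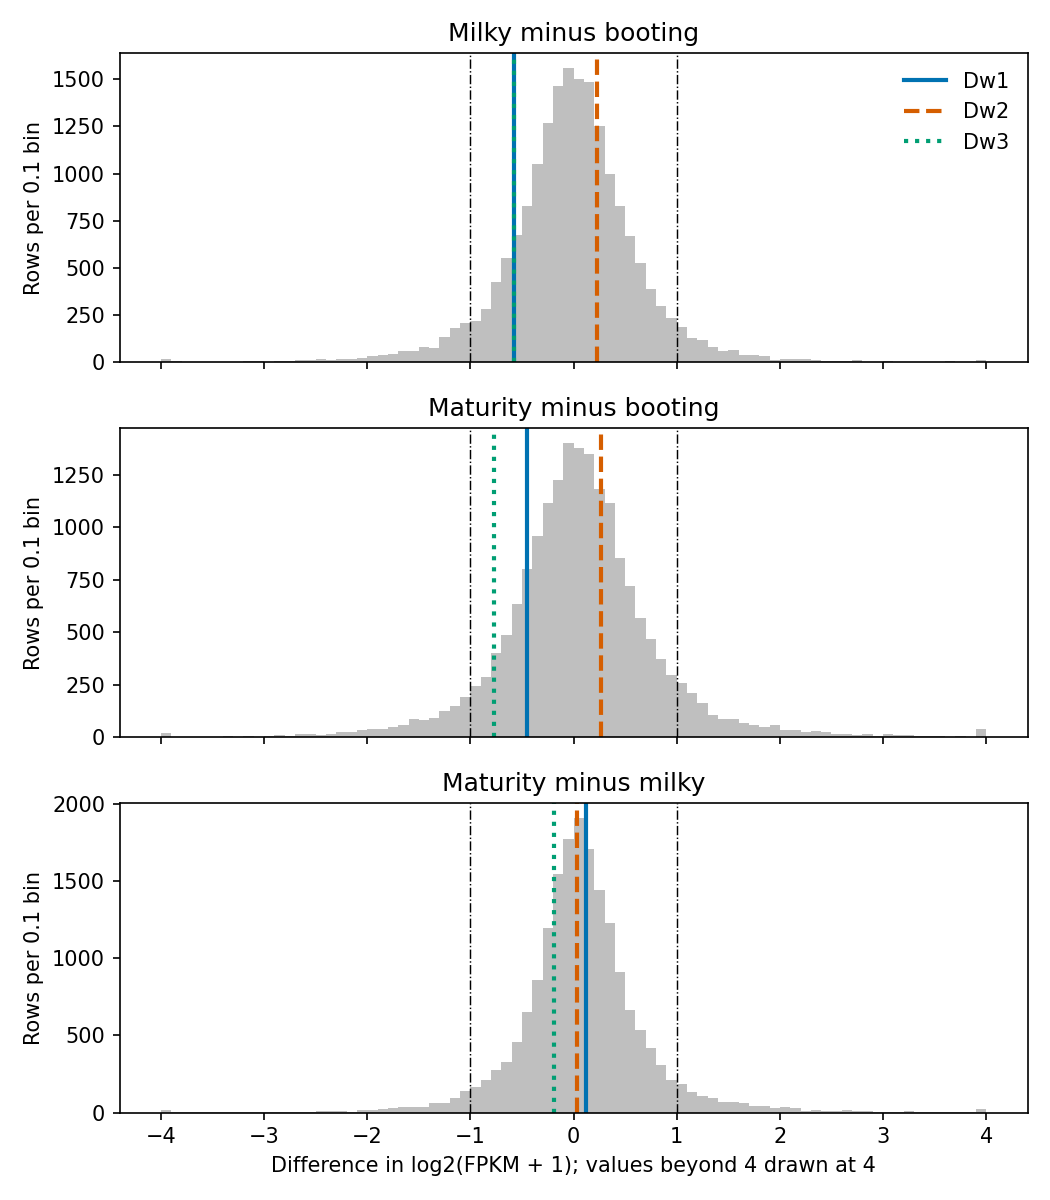
Number of rows (y axis, per bin of 0.1) by their difference in log2(FPKM + 1) between stages (x axis, later minus earlier) over the 18505 rows with at least 1 FPKM in a stage, with Dw1 (solid line), Dw2 (dashed) and Dw3 (dotted) marked and the size of 1 in either direction as thin lines. All 9 differences of the dwarfing genes lie between the thin lines, and Dw3 at −0.77 in maturity minus booting is the farthest out.

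The place of each gene in that distribution was then counted. Between booting and maturity, 9.71% of all rows had a difference as low as that of Dw3 or lower, and 9.07% did so among the 5712 other rows with a mean within 2-fold of its own. For Dw1, 19.1% of all rows were as low or lower at maturity, and 14.7% in the milky stage. For Dw2, 33.7% of all rows were as high or higher at maturity relative to booting. At the step from booting to the milky stage, Dw1 and Dw3 differed by nearly the same amount, and 14.5% of all rows were as low as Dw3 or lower. From the milky stage to maturity the 3 genes lay nearer the centre, since 64.9% of rows differed at least as much as Dw3 in either direction, 76.0% at least as much as Dw1 and 92.1% at least as much as Dw2.

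The deposited values gave each of the 3 genes its own order of stages. Dw3 ran from booting through the milky stage to maturity in falling order of value, as did 17.3% of the 16307 single-ID rows with 3 different values. Dw1, highest at booting and lowest in the milky stage, shared its order with 18.5% of them. Dw2, lowest at booting, had its highest deposited value at maturity, an order shared with 22.4% of rows. That place rests on the small difference whose sign turned. The rescalings were planned for the differences, and the order of stages under them was added after the data were seen. Dw2 was then highest in the milky stage. It shared that order with 16.8% of rows under the median of ratios and 17.0% under quantile normalization. Dw1 and Dw3 kept their orders under both. For Dw1 that too rests on a small log2 difference of maturity against the milky stage, 0.052 and 0.045 under these rescalings.

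The genes most like each dwarfing gene were sought among single-ID rows with a mean within 2-fold, by the distance between their log2(FPKM + 1) values after the mean over the 3 stages was removed from each. With only 3 values per gene such likeness is easily met, and the genes are given as a description. A distance of 0.1 or less was found for 295 of 5699 rows around Dw2, for 114 of 5739 around Dw1 and for 43 of 5058 around Dw3. The counts ran in reverse to the ratio of highest to lowest value, 1.22 for Dw2, 1.53 for Dw1 and 1.83 for Dw3. The low count around Dw3 is thus not read as a separate trait of that gene. Between the dwarfing genes themselves the distance was 0.25 for Dw3 and Dw1, 0.63 for Dw1 and Dw2 and 0.77 for Dw3 and Dw2.

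Nearest to Dw3 were Sobic.005G085000 (chromosome 5, 11585976 to 11587872), Sobic.007G148700 (chromosome 7, 57963645 to 57968689) and Sobic.003G379800 (chromosome 3, 69362959 to 69366951). Sobic.005G085000 had 9.12 FPKM at booting, 5.79 in the milky stage and 5.04 at maturity, at a distance of 0.017. Nearest to Dw1 were Sobic.008G094400 (chromosome 8, 44672606 to 44674991), Sobic.002G420300 (chromosome 2, 76752515 to 76756900) and Sobic.008G088824 (chromosome 8, 20353197 to 20358023). Sobic.008G094400 matched Dw1 in level as well as in shape, with 19.3 FPKM at booting, 12.5 in the milky stage and 13.7 at maturity. Nearest to Dw2 were Sobic.007G097300 (chromosome 7, 19015223 to 19035259), Sobic.009G137800 (chromosome 9, 49470874 to 49475428) and Sobic.003G369400 (chromosome 3, 68552564 to 68558735). Sobic.009G137800 had 21.9 FPKM at booting, 25.9 in the milky stage and 26.5 at maturity. The files give no name or function for these genes.

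The rows beside each dwarfing gene on its chromosome differed from it in level or in stage profile. Dw3 stood between 2 rows that went in opposite directions from booting to the milky stage. Before it, 8519 bp away, Sobic.007G163700 (chromosome 7, 59809465 to 59813384) had 279.8 FPKM at booting, 138 in the milky stage and 172 at maturity, a fall of just over the size of 1 from booting to the milky stage (log2 difference −1.01). Like Dw3, that row was highest at booting, and its log2 difference for maturity against booting was −0.70, against −0.77 for Dw3. For maturity against the milky stage it was 0.31, against −0.19 for Dw3. After Dw3, 15079 bp away, Sobic.007G163901 (chromosome 7, 59845371 to 59847591) had 9.95 FPKM at booting, 21.2 in the milky stage and 19.0 at maturity. Its rise from booting to the milky stage was just over the size of 1 (1.02). The following row thus had nearly the level of Dw3 at booting and over 3 times its level at both later stages.

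Dw1 had Sobic.009G229700 (chromosome 9, 57032870 to 57036097) 1903 bp before it, with 21.7 FPKM at booting, 26.0 in the milky stage and 18.9 at maturity. That row was highest in the milky stage, where Dw1 was lowest. The row 1115 bp after Dw1, Sobic.009G229900 (chromosome 9, 57042534 to 57045813), stayed at 0.170 FPKM or less at every stage.

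Dw2 had the nearest neighbour of the 3 genes, Sobic.006G067600 (chromosome 6, 42785484 to 42802516), which ended 519 bp before it. That row had 16.2 FPKM at booting, 15.9 in the milky stage and 21.8 at maturity. Its level was near that of Dw2 at booting, below the 19.4 FPKM of Dw2 in the milky stage and above its 19.9 FPKM at maturity. The row after Dw2, an unannotated locus 2274 bp away, was listed at 0 at all 3 stages. The table gives no strand for any row, and whether reads of adjacent transcripts entered the values of Dw2 was not tested.

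**Figure D3:**
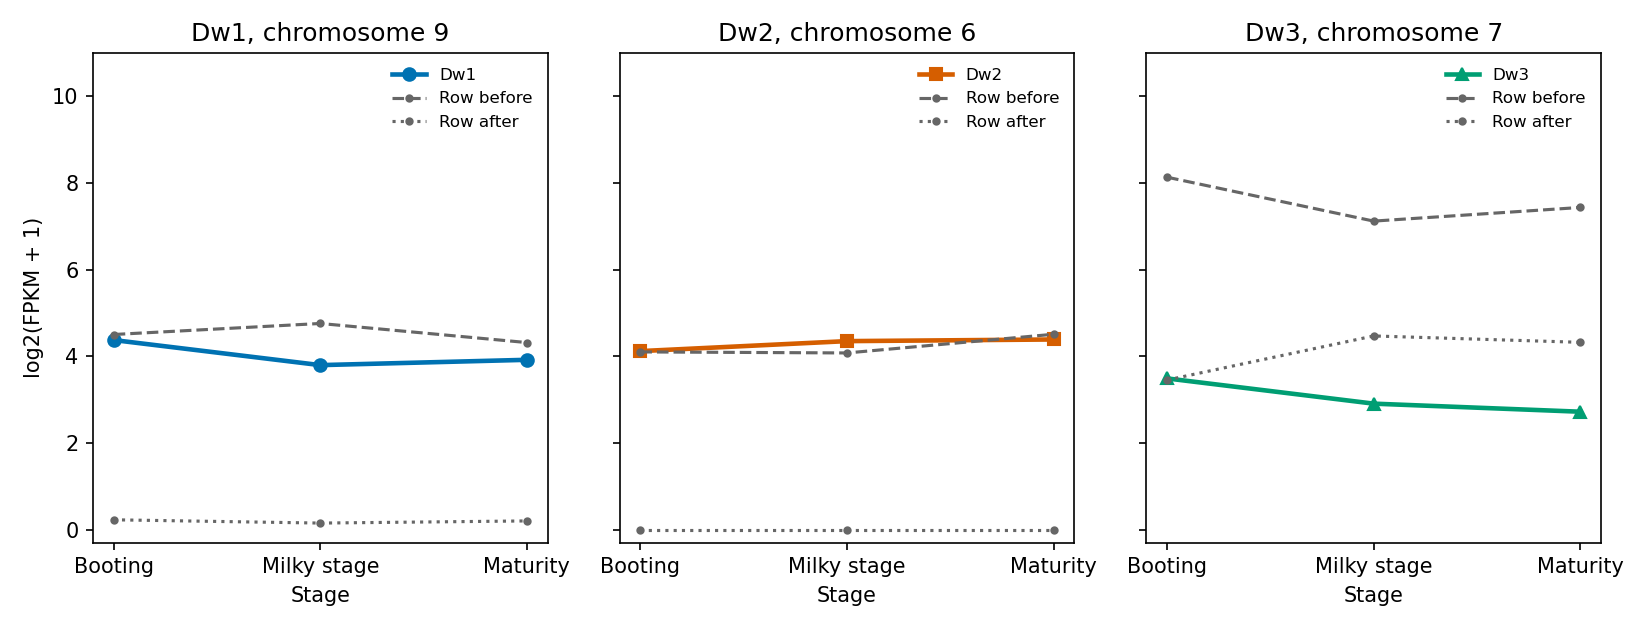
log2(FPKM + 1) on the y axis at the 3 stages on the x axis for each dwarfing gene (thick line) and the rows next to it on the chromosome, the row before (dashed) and the row after (dotted), with 1 value per row and stage. Around Dw3 the row before is far higher at every stage and the row after parts from it past booting, while the row after Dw2 is at 0 at all 3 stages.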

How the data were processed

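Per the labels' protocols, RNA came from a modified Trizol extraction, with libraries from a stranded kit for total RNA. HISAT2 2.0.5, Bowtie2 2.2.9, cutadapt 1.8.1 and Cuffdiff are named per the submitters' processing notes. Their roles, the genome build and the libraries behind each stage value are not stated in the sources used here. The deposited values are FPKM per the file headers, 1 per stage, and were used as deposited.

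From these, log2(FPKM + 1) was differenced, later stage minus earlier, over the 18505 of 34458 rows with at least 1 FPKM in a stage, and a difference of at least 1 counted as a change. The 1 added understates differences at low values. With 1 value per stage no test was possible. The members, lists and rules were chosen with earlier results of these data known. Named rows are the members, the 3 rows most like each and the rows beside each. The gene names come from the choice of members. As spelled in the files, 0 of the 34129 gene IDs stand in the RefSeq table of assembly Sorghum_bicolor_NCBIv3, which holds no descriptions, so 0 of 12 pathway lists (auxin carriers, brassinosteroid and gibberellin genes, expansins, other tissues and others) had a member, and no related proteins or sequences were compared.

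Depth is not stated. In rows with low values, FPKM times locus length (less about 167 bp) piled up at 0.0102 FPKM kb at booting, 0.0111 in the milky stage and 0.0112 at maturity. The length taken off was searched for, as the one with the largest pile. The step was then taken as the lowest of the large piles, which need not be the largest itself. That step held 69 of 2397 rows used at booting, 135 of 2568 in the milky stage and 99 of 3049 at maturity. If that step is 1 fragment, Dw3 at maturity had 499 fragments per kb, a counting error of 4.47% over 1 kb, which says nothing of the spread between plants. The code was tested on simulated data. Python 3.11.15, numpy 2.4.6, pandas 2.3.3 and matplotlib 3.10.9 were used.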

Additional observations from a re-analysis of the deposited data

How the results depend on the processing

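Of 45 values for the 9 member differences (pseudocounts of 0.1 and 5, none, median of ratios, quantile normalization), 43 kept the direction and stayed under the size of 1. The exceptions were Dw2 in maturity vs milky, at −0.034 with the median of ratios and −0.035 with quantile normalization, against 0.038. The rescaling factors were 0.983 for the milky stage and 1.04 for maturity. The setting with no pseudocount was chosen after the data were seen. A pseudocount cannot turn a sign, so those settings check at most the size. The pseudocount of 5 only shrinks differences already under the size of 1, so its values were bound to stay the same. For Dw3 in maturity vs booting the values ran between −0.87 and −0.52, against −0.77.

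Over all rows, 1986 changed between the milky stage and booting. That total was 3182 with a pseudocount of 0.1, 847 with 5, 1265 among rows averaging at least 5 FPKM and 308 when a log2 difference of 2 was asked. Between maturity and booting 2645 changed, and the total was 1167 with a pseudocount of 5, 1529 at the higher mean and 567 at the larger size. Between maturity and the milky stage 1712 changed, against 2722 and 668 with pseudocounts of 0.1 and 5, 955 at the higher mean and 341 at the larger size. These moves follow from the weight of low values, the rows entered or the size asked. The other alternatives stayed within 1.5 times.

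No paired analysis was possible because the table has 1 value per stage. For the same reason the booting replicates were not left out in turn. The spread between plants is not known from these values.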
